A study of Mus musculus with 441 samples.

Results

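The GIMAP genes encode GTPases of the immunity-associated protein family, and the 8 members in the expression table, Gimap1, Gimap3, Gimap4, Gimap5, Gimap6, Gimap7, Gimap8 and Gimap9, were taken by name from its 13561 genes. They were followed in 441 single cells from mouse pancreatic islets, 184 sorted with the HIP tetramer and 257 with the Ins tetramer. A tetramer is a reagent of linked MHC molecules loaded with a peptide, and it binds T cells whose receptor recognises that complex. The labels describe the cells as CD4 T cells specific for the insulin-producing beta cell, sorted 1 by 1, and spell out neither HIP nor Ins. They give no strain, genotype, age, treatment or animal, so each sort counted as 1 sample. The authors' annotation placed each cell in 1 of 5 classes. The T follicular helper (Tfh) class held 111 HIP and 61 Ins cells, and cluster 2, annotated as activated CD4 T cells, held 61 HIP and 25 Ins cells. The regulatory T cell (Treg) class held 3 HIP and 115 Ins cells, and the dividing CD4 T cell class held 9 HIP and 35 Ins cells. Cluster 4, annotated as B cells, held 21 Ins cells and none from the HIP sort. "T cells" below means the 420 cells outside cluster 4, 184 of them HIP and 236 Ins.

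GIMAP proteins bind GTP, are found mainly in lymphocytes, and are best known for roles in the survival and homeostasis of T and B cells. Several of them sit on intracellular membranes, and their genes lie together in a single cluster in mammals. Loss of Gimap5 causes a shortage of T cells in rats and mice, and in the BB rat this loss contributes to spontaneous autoimmune diabetes. Gimap1 is needed for the survival of mature lymphocytes in mice, Gimap4 has been linked to the course of T cell death, and Gimap6 binds a protein of the autophagy machinery.

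All 8 members lay on chromosome 6 within 123.666 kb, at chr6:48647186-48770851 of GRCm38, the assembly that mm10 names. In the order of the chromosome, Gimap8 came first (48647186 to 48660875, plus strand), followed by Gimap9 (48676121 to 48679116, plus) and Gimap4 (48684578 to 48692062, plus). Gimap6 (48701583 to 48708244) lay on the minus strand between Gimap4 and Gimap7 (48718621 to 48724636, plus). Gimap1 (48739047 to 48743795, plus), Gimap5 (48746197 to 48754200, plus) and Gimap3 (48764464 to 48770851, minus) completed the cluster. Gimap4 and Gimap7 were the members that differed most between Treg and Tfh cells and between HIP and Ins T cells, whereas Gimap6, between them on the other strand, differed less in both. The 250 bases upstream of the RefSeq start of these 3 genes (GRCm38.p6) are therefore shown, with capitals marking the 6-letter core TGTGGT of RUNX factors or GGAAGT of ETS factors, on either strand.
Gimap4 (chr6:48684328-48684577, plus strand): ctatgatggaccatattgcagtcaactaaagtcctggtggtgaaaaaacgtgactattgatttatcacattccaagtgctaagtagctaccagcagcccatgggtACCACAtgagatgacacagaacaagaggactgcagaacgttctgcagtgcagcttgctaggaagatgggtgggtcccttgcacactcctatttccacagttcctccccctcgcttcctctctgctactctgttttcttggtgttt
Gimap6 (chr6:48708245-48708494, minus strand): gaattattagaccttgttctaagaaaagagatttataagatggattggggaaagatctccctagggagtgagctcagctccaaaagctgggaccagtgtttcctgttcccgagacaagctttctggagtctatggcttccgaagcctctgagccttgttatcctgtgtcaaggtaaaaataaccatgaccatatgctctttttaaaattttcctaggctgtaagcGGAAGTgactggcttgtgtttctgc
Gimap7 (chr6:48718371-48718620, plus strand): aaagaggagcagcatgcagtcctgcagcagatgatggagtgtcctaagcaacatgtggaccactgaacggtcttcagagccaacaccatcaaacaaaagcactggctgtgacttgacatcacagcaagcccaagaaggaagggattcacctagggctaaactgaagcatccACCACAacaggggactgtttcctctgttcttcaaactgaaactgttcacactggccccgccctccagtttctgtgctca
RefSeq promoter windows matched 8 of 8 members, with 2 windows for Gimap8. The whole windows of 300 bases, which reach 50 bases past the start, held TGTGGT in Gimap1, Gimap4 and Gimap7, against 16.8% of all 32851 mouse windows. GGAAGT was present in Gimap1, Gimap5, Gimap6 and Gimap9, against 23.8% of all windows. STAT letters (TTCNNNGAA, 8.30% of windows) were present in Gimap3, Gimap6, Gimap7 and Gimap8, the forkhead letters TGTTTAC (3.65%) in Gimap3, and the TCF/LEF letters TTCAAAG (5.14%) in Gimap7, where they overlapped the STAT letters. Such matches describe letters and do not show binding.

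Values are TPM, transcript abundances corrected for transcript length and scaled to the same total in every cell, so levels can be set side by side between genes. Detection means 1 TPM or more. Ranges after shares are 95% intervals by the exact Clopper-Pearson method and cover counting error only, and the SD after each mean is taken over cells, so it is no replicate error. TPM keeps no sequencing depth. The number of genes detected per cell, the nearest stand-in, ranged from 625 to 5929 with a median of 2081. T cell medians were 2021.5 in HIP and 2093 in Ins, and the dividing class was far richer, at 3992 in HIP and 3610 in Ins. Cells were also divided by the running number in their names into 5 blocks of 96, of which blocks 1 and 3 were purely HIP and blocks 2, 4 and 5 purely Ins. The sources used here do not say what a block stands for, and blocks served to describe spread within a sort.

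The annotated classes were checked against markers. Cd3e, a chain of the T cell receptor complex, was present in 176 of 184 HIP T cells, 230 of 236 Ins T cells and 1 of 21 cluster 4 cells. Cluster 4 had Xbp1, a factor of antibody-secreting cells, in 21 of 21 cells, and Cd79a, a B cell receptor component, in 90.5% of cells. Cd79a was the most often detected of the 8 B cell markers in the table, whose median share was 26.2%, with Cr2 at 0. The 8 markers of antibody-secreting cells in the table had a median share of 97.6%. The markers of cluster 4 were thus mainly those of antibody-secreting cells. Foxp3, which defines Tregs, was seen in 1 of 3 HIP and 94 of 115 Ins Treg cells, and in 0 of 9 HIP cells and 27 of 35 Ins cells of the dividing class. With 9 cells, a count of 0 leaves room for a share of up to 33.3%. All 7 T cells that had none of Cd3d, Cd3e and Cd3g detected, or had 3 or more B cell markers detected, were Tfh class cells, 3 from HIP and 4 from Ins. The differences between groups below, though not the shares or correlations, were also computed without them. Every count of members past the size rule stayed within 1.5 times, Gimap8 between sorts in the Tfh class came to pass the rule (-1.01), and Gimap4 between cluster 2 and Tfh cells of the Ins sort no longer passed it (0.76).

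GIMAP transcripts were abundant in islet T cells. By mean TPM over the 420 T cells, Gimap4 averaged 1184 ± 1269 TPM and ranked 132nd of 13561 genes. Gimap6 averaged 989 ± 1220 TPM (rank 162), Gimap3 767 ± 992 TPM (rank 217), Gimap1 747 ± 974 TPM (rank 220) and Gimap7 587 ± 848 TPM (rank 283). A step below them, Gimap9 averaged 169 ± 361 TPM (rank 977), Gimap5 114 ± 270.5 TPM (rank 1499) and Gimap8 45.8 ± 92.6 TPM (rank 3218). Neighbours in this order differed by less than the spread between cells. Detection followed another order: Gimap3 was found in 81.7% of T cells (77.6% to 85.3%), Gimap4 in 77.4% (73.1% to 81.3%), Gimap6 in 74.5% (70.1% to 78.6%) and Gimap1 in 73.3% (68.8% to 77.5%). Gimap7 was found in 51.7% (46.8% to 56.5%), Gimap8 in 44.0% (39.2% to 48.9%), Gimap5 in 43.8% (39.0% to 48.7%) and Gimap9 in 35.0% (30.4% to 39.8%). Intervals overlapped between neighbours in this order except between Gimap1 and Gimap7. Where a member was detected it was mostly far above the threshold: among detecting T cells the median was 1206 TPM for Gimap4 and 922 TPM for Gimap7, and 2.46% and 4.15% of detecting cells lay under 10 TPM. Gimap8 and Gimap5 were the clearest exceptions, with 21.1% and 13.6% of detecting cells under 10 TPM, and Gimap1 had 8.44%.

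**Figure D1:**
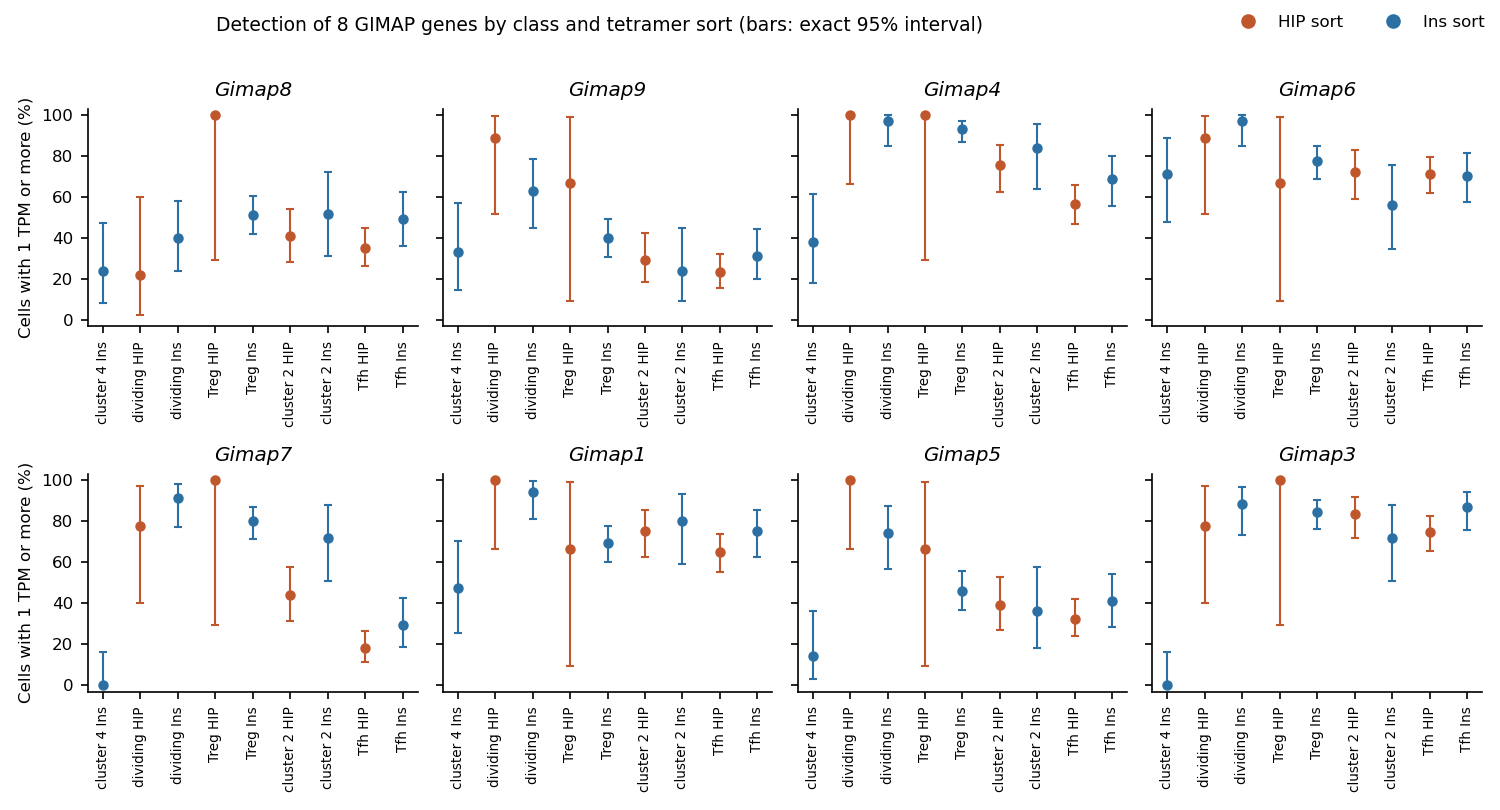
Share of cells (percent, y axis) with 1 TPM or more of each GIMAP gene in each annotated class and tetramer sort (x axis), panels in chromosomal order. Points are shares and bars exact 95% intervals. Gimap7 was found in 0 of 21 cluster 4 cells, 91.4% of Ins dividing cells, 80.0% of Ins Treg cells and 18.0% of HIP Tfh cells, while Gimap6 lies between 56.0% and 97.1% in all groups.

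Gimap7 had the widest range of detection among the T cell classes. This member encodes a GTPase whose human counterpart is activated by dimerisation. Among dividing cells, 7 of 9 HIP and 32 of 35 Ins cells had it (77.8%, 40.0% to 97.2%, and 91.4%, 76.9% to 98.2%), and among Treg cells 3 of 3 HIP and 92 of 115 Ins cells did (80.0% for Ins, 71.5% to 86.9%). The share was 44.3% in HIP (31.5% to 57.6%) and 72.0% in Ins cells (50.6% to 87.9%) of cluster 2, and 18.0% in HIP (11.4% to 26.4%) and 29.5% in Ins cells (18.5% to 42.6%) of the Tfh class. Within the Ins sort the share was thus 80.0% in the Treg and 29.5% in the Tfh class. The intervals cover counting error over cells of the same sort and no replicate error. The classes rest on these same expression values, so this describes the shares and was not tested. Levels among cells that had the transcript followed another order. The median was lowest in dividing cells, at 412 TPM in HIP and 637 TPM in Ins cells, and was 668 TPM in HIP and 682 TPM in Ins Tfh cells. It was 851 TPM in HIP and 809 TPM in Ins cluster 2 cells, and 910 TPM in the 3 HIP and 1439 TPM in Ins Treg cells. Between the Ins Treg and Tfh classes Gimap7 thus differed both in how many cells had it and in the level of those cells. Its mean over all cells was 1234 ± 1059 TPM in Ins Treg cells and 225 ± 451.8 TPM in Ins Tfh cells.

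Gimap4 followed the same order with a smaller range. All 9 HIP and 34 of 35 Ins dividing cells had it, as did 3 of 3 HIP and 93.0% of Ins Treg cells (86.8% to 96.9%), 75.4% of HIP (62.7% to 85.5%) and 84.0% of Ins cluster 2 cells (63.9% to 95.5%), and 56.8% of HIP (47.0% to 66.1%) and 68.9% of Ins Tfh cells (55.7% to 80.1%). Its mean was 1957 ± 1464 TPM in Ins Treg cells and 992 ± 1028 TPM in Ins Tfh cells, and 910 ± 1021 TPM in HIP and 1700 ± 2023 TPM in Ins cluster 2 cells. Together Gimap4 and Gimap7 made up 50.1% of the summed GIMAP TPM in Ins Treg cells, 27.1% in Ins Tfh cells and 21.0% in HIP Tfh cells.

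Gimap3, Gimap1 and Gimap6 showed no such gradient. Gimap3, a close relative of Gimap5, was present in 77.8% of HIP cells and 88.6% of Ins cells in the dividing class, in 100% of 3 HIP and 84.3% of 115 Ins Treg cells (76.4% to 90.5% for Ins), in 83.6% of HIP and 72.0% of Ins cluster 2 cells, and in 74.8% of HIP and 86.9% of Ins Tfh cells. Dividing cells had Gimap1 in 9 of 9 HIP and 94.3% of Ins cells. It was found in 64.9% to 80.0% of the cells of each other T cell group. With detection at 10 TPM its share in Ins Tfh cells was 60.7% rather than 75.4%. The autophagy-linked Gimap6 was present in 88.9% of HIP cells and 97.1% of Ins cells in the dividing class and in 56.0% (34.9% to 75.6%, Ins cluster 2) to 77.4% (68.7% to 84.7%, Ins Treg) of the remaining T cell groups. Intervals of the Treg, cluster 2 and Tfh groups overlapped throughout for Gimap1 and Gimap6.

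Gimap5, Gimap9 and Gimap8 were the least often detected. Gimap5, the member whose loss causes lymphocyte shortage, was present in 9 of 9 HIP cells and 74.3% of Ins cells in the dividing class (56.7% to 87.5%), 46.1% of Ins Treg cells (36.8% to 55.6%), 39.3% of HIP and 36.0% of Ins cluster 2 cells, and 32.4% of HIP and 41.0% of Ins Tfh cells. Gimap9 had a similar order, with 8 of 9 HIP cells and 62.9% of Ins cells in the dividing class (44.9% to 78.5%), 40.0% of Ins Treg cells, 29.5% of HIP and 24.0% of Ins cluster 2 cells, and 23.4% of HIP and 31.1% of Ins Tfh cells. Gimap8, a larger member with several GTP-binding domains, went the other way in dividing cells: it was present in 2 of 9 HIP cells and 40.0% of Ins cells of that class (23.9% to 57.9%), 51.3% of Ins Treg cells (41.8% to 60.7%), 41.0% of HIP and 52.0% of Ins cluster 2 cells, and 35.1% of HIP and 49.2% of Ins Tfh cells. Of the 3 HIP Treg cells, 2 had Gimap5, 2 had Gimap9 and 3 had Gimap8.

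**Figure D2:**
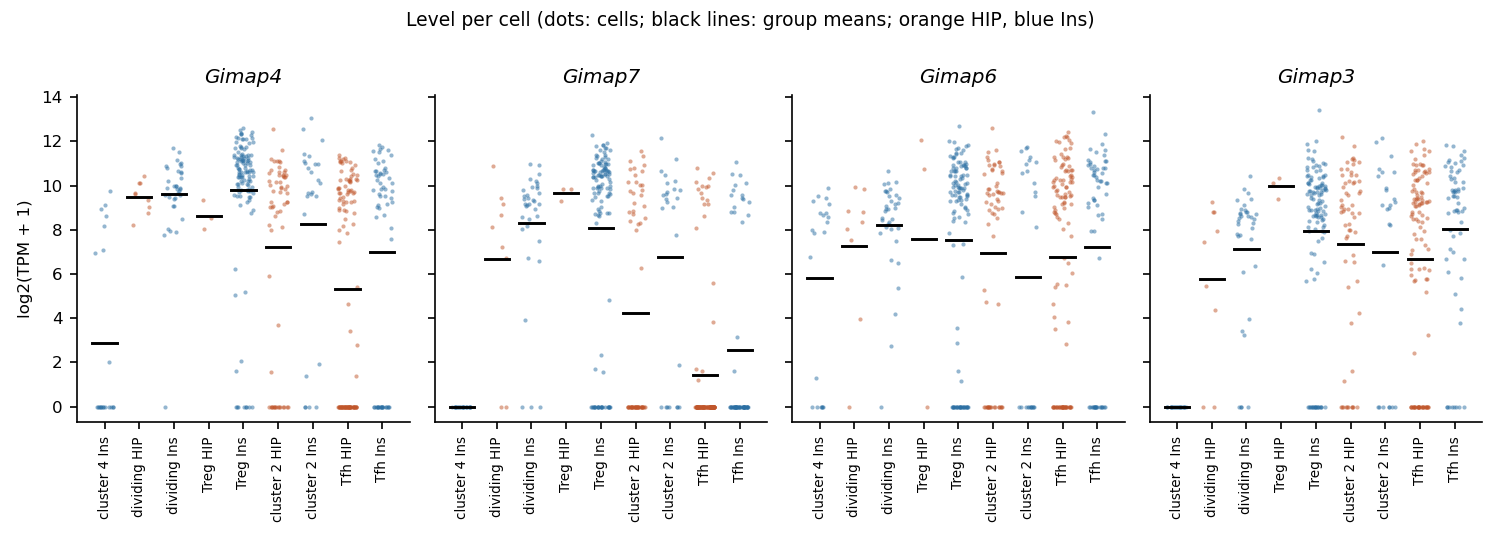
Level of Gimap4, Gimap7, Gimap6 and Gimap3 in each cell, as log2(TPM + 1) on the y axis, by class and tetramer sort on the x axis. Each dot is a cell and black lines are group means. Cells split into a band at 0 and a band mostly above 6, and for Gimap7 the share of cells at 0 is what differs most between groups.

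Differences between groups are given as the difference of mean log2(TPM + 1), over genes that 10% or more of the cells in 1 of the groups had, and a difference of 1 or more was the size rule for calling a gene higher or lower. This scale understates changes of genes at low levels, and where many cells hold 0 it largely follows the share detected. With 1 sample per sort no test was made. The authors' classes rest on these same expression values, which makes class differences a description.

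Between Treg and Tfh cells of the Ins sort, 2 of 8 members passed the rule, both higher in Treg, where 9.01% of the 6061 genes tested were higher and 4.34% lower. Gimap7 averaged 8.06 in Treg and 2.58 in Tfh cells on the log2 scale, a difference of 5.47, and Gimap4 averaged 9.79 in Treg and 7.00 in Tfh cells, a difference of 2.79. The other 6 differed by -0.09 (Gimap3) to 0.89 (Gimap9). The median over the family was 0.43, against 0.01 over all genes tested. Treg and Tfh cells shared each Ins block, so the difference was also computed within blocks 2, 4 and 5: it was 6.48, 5.14 and 5.10 for Gimap7 and 4.12, 0.94 and 3.59 for Gimap4. Gimap3, at 2.03, -0.41 and -1.21, and Gimap6, at 2.10, -1.30 and 0.56, changed sign between blocks. Of the 7 myeloid markers in the table only 2 were detected in Ins Treg cells, with Lyz2, C1qb, Fcer1g, Tyrobp and Itgam at 0. The summed level of the list ran from 0 to 9443 TPM in Ins Treg cells and from 0 to 3018 TPM in Ins Tfh cells. Its most often detected gene, the protease inhibitor gene Cst3, was found in 81.7% of Ins Treg and 37.7% of Ins Tfh cells. The part of this list in the result was not tested.

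Genes of processes tied to GIMAP proteins, and other gene lists, were read in the same comparison. There 9.01% of all genes tested were higher in Treg and 4.34% lower. Of the 11 BCL2 family survival genes, 9 were tested: Bcl2a1b was higher in Treg by 1.86, and Bcl2 itself was lower by -1.37, being detected in 0.870% of Treg and 19.7% of Tfh cells. None of 9 tested ATG8 and autophagy genes passed the rule. Gabarapl2, the Gimap6 partner, was found in 47.8% of Treg and 45.9% of Tfh cells. Among 14 tested interferon-inducible GTPases of the IRG and GBP families, another group of immune GTPases, 5 were higher in Treg and none lower. They were Gbp2 (1.17), Gbp3 (1.08), Gbp4 (1.64), Gbp6 (1.80) and Gbp7 (1.82). Of 11 naive and recirculation genes tested, 5 were lower in Treg and none higher by the rule, and 4 of the 11 lay above 0. The 5 were led by Tcf7, a factor of naive and follicular helper cells, at -7.17.

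Gimap7 was also higher in cluster 2 than in the Tfh class of both sorts. In the HIP sort 3 of 8 members passed the rule, all higher in cluster 2, where 8.57% of genes tested were higher and 2.78% lower. Gimap7 averaged 4.25 in cluster 2 and 1.43 in Tfh cells (difference 2.82). Gimap4 averaged 7.24 in cluster 2 and 5.32 in Tfh cells (1.92), and Gimap1 6.97 in cluster 2 and 5.65 in Tfh cells (1.32). All 8 members lay above 0. The share of all genes tested above 0 was not computed, and their median was 0.09. In the Ins sort 5 of 8 passed, where 9.69% of genes were higher and 8.20% lower. Gimap7 (4.18), Gimap1 (1.66) and Gimap4 (1.25) were higher in cluster 2, and Gimap6 (-1.36) and Gimap3 (-1.03) were lower. Gimap7 was higher in cluster 2 within each of the 5 blocks, by 4.01 and 1.73 in the HIP blocks and by 6.23, 2.34 and 3.99 in the Ins blocks. Gimap4 was higher in 4 of 5 blocks and lower in block 4 (-1.87), and Gimap1 was higher in 4 of 5 and lower in block 2 (-1.48). The numbers behind the Ins blocks were small, at 7 to 10 cluster 2 cells each. In the Ins sort, adding 10 TPM in place of 1 before taking logs left 2 members past the rule, Gimap7 and Gimap1. Gimap4 then differed by 0.90, and by 0.43 among cells with 1500 to 3000 genes detected. In the HIP sort Gimap1 differed by 0.92 with 10 TPM added and by 0.77 in that window, so it no longer passed, while Gimap4 and Gimap7 did. Cst3 was found in 60.7% of HIP cluster 2 and 41.4% of HIP Tfh cells and in 60.0% of Ins cluster 2 and 37.7% of Ins Tfh cells, and passed the rule as higher in cluster 2 of both sorts. Pecam1, of the endothelial list, was lower in cluster 2, by -1.55 in the HIP and -1.26 in the Ins sort, and Cdh5 of that list was at 0 in all 4 groups. The summed myeloid list ran from 0 to 4755 TPM in HIP cluster 2 and to 4500.3 TPM in HIP Tfh cells, and from 0 to 6577 TPM in Ins cluster 2 and to 3018 TPM in Ins Tfh cells. The part of either list was not tested.

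In the Ins sort, dividing cells carried more kinds of GIMAP transcript than Treg cells, at a lower mean TPM of each. Within the Ins sort 3 of 8 members were higher in dividing cells by the size rule, where 42.3% of the 8150 genes tested were higher and 0.896% lower, and where the median of all genes was 0.80. Gimap1 differed by 2.00, Gimap5 by 1.52 and Gimap9 by 1.23, while Gimap8 was lower at -1.49. These differences followed detection: Gimap1 was found in 94.3% of dividing and 69.6% of Treg cells, but its mean was 532 ± 317 TPM in dividing and 811 ± 1040 TPM in Treg cells. All 8 members had lower mean TPM in dividing than in Treg cells. Median TPM over all cells went the other way for Gimap1 (547 in dividing and 518 in Treg cells), Gimap5 (45.9 and 0) and Gimap9 (127 and 0). It was lower in dividing cells for every other member. Among cells with 2500 to 5000 genes detected (31 dividing and 19 Treg cells), Gimap1 differed by -0.56, Gimap5 by 0.43 and Gimap9 by 0.01. In that window Gimap8 (-3.13), Gimap3 (-1.50) and Gimap7 (-1.21) were lower in dividing cells by the size rule. Over all cells Gimap3 differed by -0.83 and Gimap7 by 0.23. A higher detection of Gimap1, Gimap5 and Gimap9 in dividing cells cannot be told apart from the larger number of genes detected there. Of 20 division genes tested, 20 were higher in dividing cells.

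Cluster 4 had little of the family. It was lower than Ins T cells by the size rule for 7 of 8 members, where 11.3% of the 7335 genes tested were lower and 23.1% higher. Gimap3 and Gimap7 were detected in 0 of 21 cluster 4 cells, a count that leaves room for a share of up to 16.1%, against 84.3% and 67.8% of Ins T cells. Gimap4 was found in 38.1% of cluster 4 cells (18.1% to 61.6%) and 86.4% of Ins T cells (81.4% to 90.5%), Gimap1 in 47.6% of cluster 4 and 75.8% of Ins T cells, Gimap5 in 14.3% of cluster 4 and 47.9% of Ins T cells, and Gimap8 in 23.8% of cluster 4 and 49.2% of Ins T cells. Gimap6 stood apart, with 71.4% of cluster 4 cells (47.8% to 88.7%) and 76.3% of Ins T cells (70.3% to 81.5%), but at a mean of 304 ± 290.0 TPM in cluster 4 and 1026 ± 1234 TPM in Ins T cells. Gimap9 was found in 33.3% of cluster 4 and 39.4% of Ins T cells and did not pass the rule (-0.78). Among cells with 1500 to 3000 genes detected, Gimap6 missed the rule (-0.74) and Gimap9 passed it (-1.23). With blocks weighted equally the values were -0.58 for Gimap6 and -1.46 for Gimap9. Gimap8 missed the rule with 10 TPM added (-0.97). Of 11 T cell markers 9 were detected in cluster 4, with Cd4 and Trat1 at 0, and their summed level ran from 0 to 6085 TPM with a median of 2.85 TPM. Their part in the GIMAP values there was not tested.

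Turning to the tetramer sorts, all 8 members had a lower mean log2 level in HIP than in Ins T cells. The share of all genes tested that lay below 0 was not computed, and their median, given below, was also below 0. In TPM, however, Gimap5 averaged 123 ± 307 in HIP and 107 ± 238 in Ins T cells. Without block 1 the log2 differences of Gimap1 (0.15), Gimap8 (0.24) and Gimap9 (0.06) turned positive. Only Gimap7 and Gimap4 passed the size rule, where 4.32% of the 6408 genes tested were lower and 0.780% higher in HIP, and where the median over all genes was -0.13. Gimap7 was detected in 57 of 184 HIP T cells (31.0%, 24.4% to 38.2%) and 160 of 236 Ins T cells (67.8%, 61.4% to 73.7%), and averaged 263 ± 539 TPM over HIP and 840.2 ± 954 TPM over Ins T cells, a log2 difference of -3.78. For Gimap4 the shares were 65.8% in HIP (58.4% to 72.6%) and 86.4% in Ins (81.4% to 90.5%), and the averages 703 ± 837 TPM over HIP and 1559 ± 1416 TPM over Ins T cells, a difference of -2.67. The other 6 differed by -0.82 (Gimap3) to -0.42 (Gimap1). By block, Gimap7 was found in 25.0% and 36.5% of HIP T cells and in 74.3%, 67.1% and 63.2% of Ins T cells. Gimap4 was found in 59.1% and 71.9% of HIP and in 87.1%, 86.1% and 86.2% of Ins T cells. The blocks of the sorts did not overlap for either gene. The share of all genes tested whose blocks lay apart in this way was not computed, so this describes these genes only.

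These pooled values mix classes in unequal shares, since the Treg class was 3 of 184 HIP and 115 of 236 Ins T cells. When the Tfh, cluster 2 and dividing classes were weighted equally in each sort, a choice made after seeing the data, the difference was -1.75 for Gimap7 and -0.94 for Gimap4, so Gimap7 alone passed the rule. Of 9 Treg markers tested over all T cells, 7 were lower in HIP, with a median difference of -1.80, and their sum ran from 0 to 12206 TPM in HIP and from 0 to 18075 TPM in Ins T cells. Cst3, the only myeloid marker tested, was also lower in HIP (-2.04). The myeloid sum ran from 0 to 4755 TPM in HIP and from 0 to 9443 TPM in Ins T cells, with C1qb and Fcer1g at 0 in both. The part of either list in the result was not tested, and values within classes are given as well.

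In the Tfh class, whose cells are part of the pool above, all 8 members had a lower mean log2 level in HIP. The share of all genes tested that lay below 0 was not computed here either. By the size rule 3 members were lower, where 3.79% of the 5779 genes tested were lower and 2.08% higher. Gimap4 averaged 5.32 in HIP and 7.00 in Ins cells on the log2 scale (-1.69), Gimap3 averaged 6.70 in HIP and 8.04 in Ins cells (-1.34), and Gimap7 averaged 1.43 in HIP and 2.58 in Ins cells (-1.15). Gimap8 lay just under the size of 1 (-0.96), and the median over the family was -0.77, against -0.06 over all genes. In TPM, Gimap4 averaged 590.4 ± 741 in HIP and 992 ± 1028 in Ins cells, and Gimap3 688 ± 874 in HIP and 918 ± 926 in Ins cells. The spread between blocks was as large as many of these differences. HIP blocks averaged 5.94 and 7.56 for Gimap3 and Ins blocks 5.79, 9.36 and 8.33, which overlapped. For Gimap4 the HIP blocks averaged 5.30 and 5.33 and the Ins blocks 6.31, 8.12 and 6.41. Gimap7 averaged 1.03 and 1.89 in HIP and 2.42, 3.22 and 2.10 in Ins, without overlap for either gene. How many of all genes lacked overlap in the Tfh class was not computed. HIP block 1, with a median of 1775 genes per cell, was lower than HIP block 3, with 2037, for 8 of 8 members. Without block 1 the differences of Gimap1 (0.80), Gimap9 (0.37), Gimap8 (0.23) and Gimap6 (0.13) were positive, and without block 2 that of Gimap1 was (0.32). In TPM, Gimap5 averaged 128 ± 343 in HIP and 123 ± 313 in Ins Tfh cells. Leaving out block 1 or block 4 left 1 member past the rule, Gimap4, leaving out block 3 left 7 and leaving out block 5 left 5, while Gimap4 kept a difference between -2.04 and -1.05 whichever block was left out. Adding 10 TPM before taking logs also left Gimap4 alone.

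**Figure D3:**
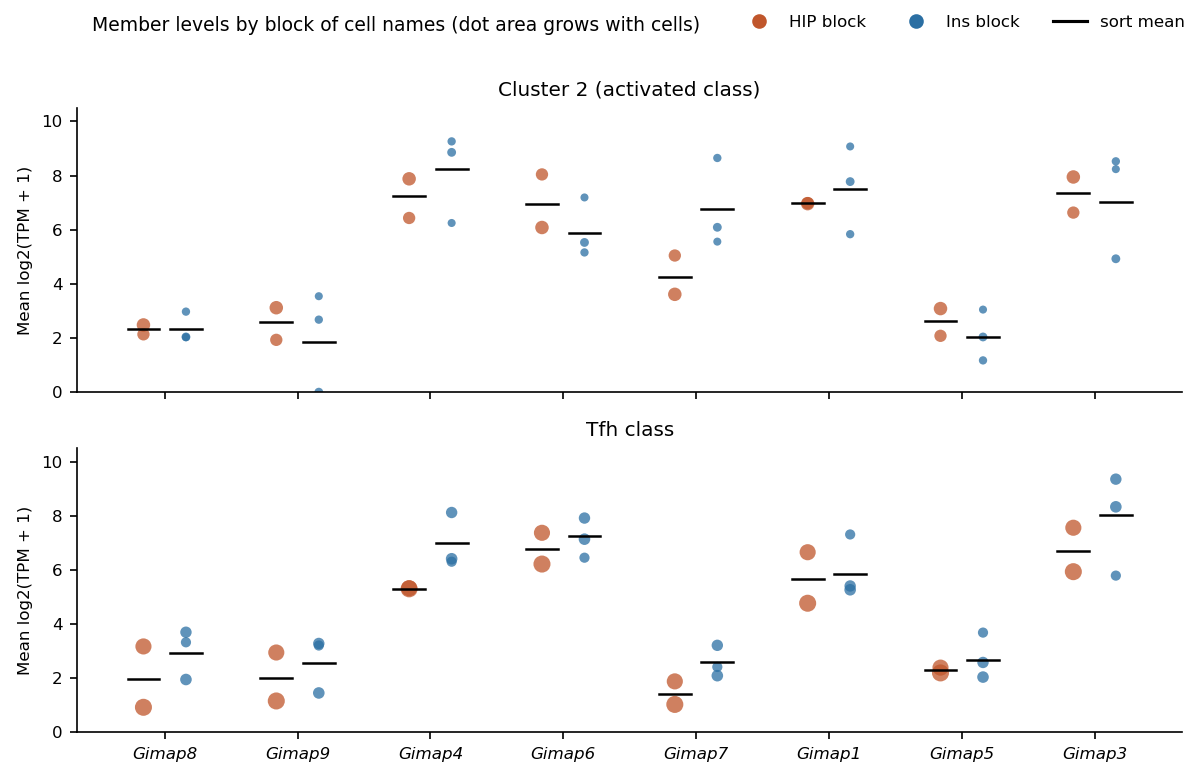
Mean log2(TPM + 1) of each GIMAP gene (y axis) in each block of 96 cell-name numbers, for cluster 2 (top) and the Tfh class (bottom), with genes on the x axis in chromosomal order. Dots are blocks, dot area grows with the number of cells, and lines are sort means. In the Tfh class the HIP blocks lie below all Ins blocks for Gimap4 and Gimap7 and among them for Gimap3.

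In cluster 2, Gimap7 and Gimap4 were lower and Gimap6 higher in HIP by the size rule, where 6.74% of the 6079 genes tested were lower and 8.42% higher. Gimap7 averaged 4.25 in HIP and 6.76 in Ins cells (-2.51), Gimap4 7.24 in HIP and 8.26 in Ins cells (-1.02) and Gimap6 6.95 in HIP and 5.88 in Ins cells (1.07). For Gimap7 the HIP blocks averaged 5.05 and 3.61 and the Ins blocks 8.65, 5.56 and 6.09, without overlap. How many of all genes lacked overlap in cluster 2 was not computed. For Gimap6 the HIP blocks averaged 8.04 and 6.08 and the Ins blocks 5.16, 7.19 and 5.53, and Gimap4 averaged 6.43 and 7.88 in HIP and 9.26, 6.25 and 8.86 in Ins, with overlap for both. Among cells with 1500 to 3000 genes detected, or with 10 TPM added, only Gimap7 passed. Gimap4 and Gimap6 also missed the rule without block 1 (-0.38 and 0.20), block 2 (-0.54 and 0.74) or block 5 (-0.62 and 0.84). In the dividing class, with 9 HIP cells, Gimap7 (-1.59) and Gimap3 (-1.34) were lower and Gimap9 (1.87) higher in HIP, where 10.0% of the 9539 genes tested were lower and 17.2% higher, and without block 3, which leaves 2 HIP cells, 5 members passed. Gimap3 missed the rule with 10 TPM added (-0.97), without block 2 (-0.80) and without block 3 (-0.0034). Gimap7 was lower in HIP by the rule in each of the 3 classes that could be compared. Treg markers were lower in HIP in the same classes: 8 of 9 tested in the dividing class, with a median of -2.00, 2 of 7 in cluster 2 (Foxp3 and Ikzf4), and 2 of 7 in the Tfh class (Tnfrsf18 and Capg), where Ctla4 was higher. Their sum ran from 127 to 2032 TPM in HIP and from 307 to 7781 TPM in Ins dividing cells, from 0 to 10473.5 TPM in HIP and from 0 to 18075 TPM in Ins cluster 2 cells, and from 0 to 3853 TPM in HIP and from 0 to 7362 TPM in Ins Tfh cells. Foxp3 was at 0 in HIP cells of cluster 2 and of the dividing class. The part of these markers was not tested. The 3 HIP cells of the Treg class all had Gimap7, at 631 to 922 TPM, and all had Gimap4, at 259 to 642 TPM.

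The related gene lists were read in the same comparisons. Over all T cells, where 4.32% of genes tested were lower and 0.780% higher in HIP, 1 or 2 genes of each list passed the rule. Of 8 tested BCL2 family genes 1 was lower in HIP (Bcl2a1b, -1.56), of 9 autophagy genes 1 was lower (Gabarapl2, -1.09), and of 14 IRG and GBP genes 2 were lower (Igtp, -1.39, and Gbp7, -1.09). Naive and recirculation genes had 1 of 10 higher in HIP (Tcf7, 2.66). Within the Tfh class, where 3.79% of genes were lower and 2.08% higher, 1 of 8 autophagy genes (Map1lc3b, -1.46), 2 of 13 IRG and GBP genes (Igtp, -1.57, and Ifi47, -1.01) and 2 of 12 naive genes (Ccr7, -1.14, and Slfn2, -1.86) were lower in HIP and none of these lists had a higher gene. The Tfh cells are among those of the pooled comparison.

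Most T cells carried several members at once. The median number of members detected was 7 in HIP and 7 in Ins dividing cells, 7 in HIP and 5 in Ins Treg cells, 5 in HIP and 5 in Ins cluster 2 cells, and 4 in HIP and 4 in Ins Tfh cells. At least 4 of 8 members were found in 100% of HIP and Ins dividing cells, in 88.7% of Ins Treg cells (81.4% to 93.8%), in 73.8% of HIP (60.9% to 84.2%) and 80.0% of Ins cluster 2 cells (59.3% to 93.2%), and in 55.0% of HIP (45.2% to 64.4%) and 68.9% of Ins Tfh cells (55.7% to 80.1%). In cluster 4 the share was 9.52% (1.17% to 30.4%). Of 420 T cells, 5 had no member detected and 24 had all 8. Summed over the family, the median was 2515 TPM in HIP and 3362 TPM in Ins dividing cells, 5064 TPM in HIP and 6045 TPM in Ins Treg cells, 3496 TPM in HIP and 4635 TPM in Ins cluster 2 cells, and 2961 TPM in HIP and 4021 TPM in Ins Tfh cells. Among the T cell classes of each sort, the dividing class thus had the lowest median sum while no class had more members. Cluster 4 had a median sum of 493 TPM.

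**Figure D4:**
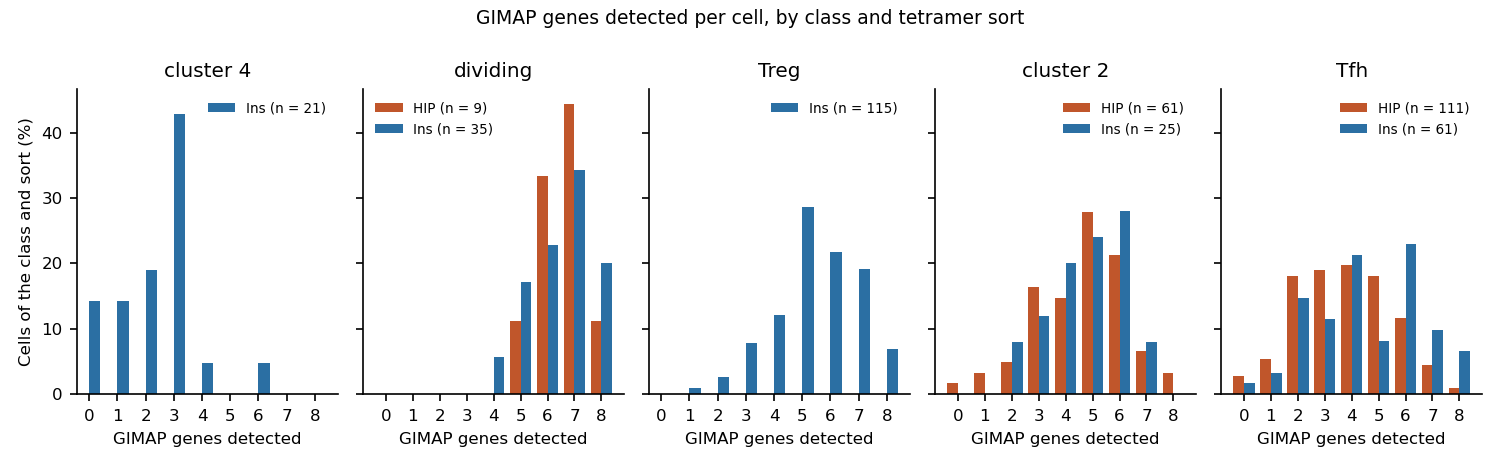
Percent of the cells of each class and tetramer sort (y axis) by the number of GIMAP genes detected at 1 TPM or more (x axis, 0 to 8). The 3 HIP Treg cells are not drawn. Dividing cells have 4 or more members throughout, Tfh cells centre on 4, and cluster 4 cells centre on 3.

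Members varied together only weakly from cell to cell. After the mean of each class and sort was subtracted, Pearson r over the 420 T cells lay between -0.01 (Gimap6 and Gimap8) and 0.17 for the 28 pairs of members, with a median of 0.10. Over 3186550 pairs of 2525 genes detected in at least 25% of T cells the median was 0.03, 11.6% of pairs reached the median of the family and 1.29% reached its highest pair. The highest pairs were Gimap7 with Gimap8, Gimap3 with Gimap5 and Gimap4 with Gimap7, each at 0.17. Cells share library preparation and capture, and all members were correlated with the number of genes detected (r of 0.08 for Gimap5 to 0.23 for Gimap9, against a median of 0.16 for all genes). With that slope removed the median over pairs was 0.061. Correlations of this size in sparse counts are given as values and not as a finding. Gimap3 and Gimap5 have stretches in common, whose part in their r was not tested: 18.8% of the 25-base stretches of the longest Gimap3 transcript occur in Gimap5 and 20.6% of those of Gimap5 in Gimap3 (GENCODE vM21). At 50 bases, the longer read length, the shares were 9.06% and 9.98%, and the sources used here do not say how such reads were divided. No other pair of members shared a 25-base stretch. Of other annotated genes, those with the largest shared stretches were Gm28053 and Gimap1os. Gm28053 shares 11.8% of Gimap1, 6.74% of Gimap5, 4.58% of Gimap7 and 1.56% of Gimap3, and Gimap1os shares 10.6% of Gimap1. Other genes outside the family shared at most 4.15% of a member (Gm10310, of Gimap1). Levels of Gimap3 and Gimap5, and to a lesser degree Gimap1, are uncertain to that extent.

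**Figure D5:**
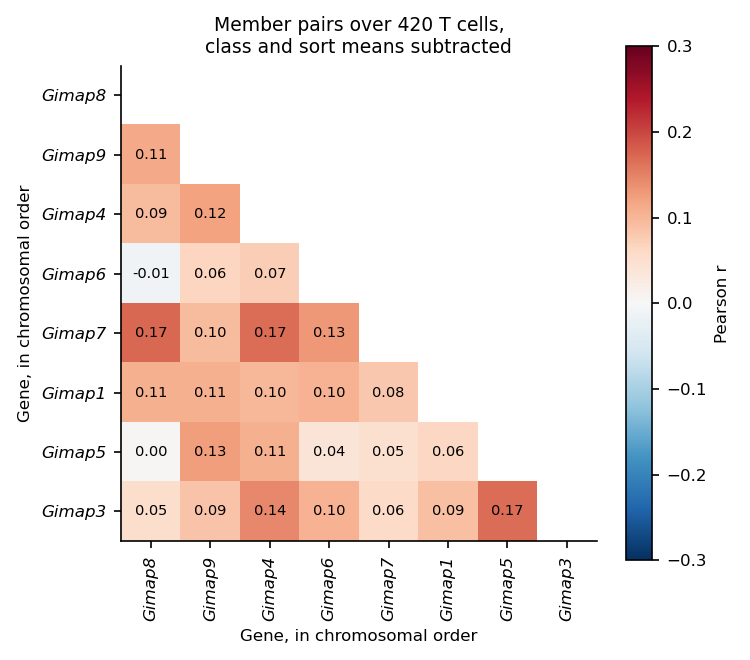
Pearson r of log2(TPM + 1) between GIMAP genes over 420 T cells after the mean of each class and sort was subtracted, with genes in chromosomal order on both axes and colour from -0.3 to 0.3. Values run from -0.01 to 0.17.

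The genes whose levels were most like the mean of the family, among 2182 ranked, were led by Cd3e. Its r over the 420 T cells was 0.29. It was followed by Ms4a6d (0.27) and Ms4a6b (0.25), membrane proteins related to CD20, and by the interferon-inducible Ifi27l2b (0.27) and Ifi27l2a (0.26). The folate receptor family member Folr4 (0.26), the actin-binding Tmsb4x (0.26) and the small GTPase Rac2 (0.26) were also among them. The median over all ranked genes was 0.07. At the other end lay Rapgef4 (-0.17), Wnt4 (-0.15), Ctcfl (-0.15) and Cybrd1 (-0.15). With the slope on the number of genes removed, Cd3e kept 0.19 and Folr4 0.24. Of the 10 T cell markers that could be ranked, 9 lay above the median of all genes, with a median of 0.20. The 420 cells include 6 Tfh class cells with none of Cd3d, Cd3e and Cd3g detected, whose part in these values was not tested. The median was 0.11 for 5 autophagy genes, 0.09 for 4 naive genes, 0.08 for 7 IRG and GBP genes, 0.07 for 3 BCL2 family genes and -0.00096 for 4 division genes.

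The neighbours of the GIMAP cluster on the chromosome were detected far less often. Members were detected in 35.0% to 81.7% of T cells. Neighbours were taken only from protein-coding genes and transcribed pseudogenes present in the expression table, so nearer genes absent from it may have been passed over. The 5 nearest of these before Gimap8 (Atp6v0e2, Lrrc61, Repin1, Zfp775 and AI854703) and the 5 after Gimap3 (Tmem176b, Tmem176a, Gpnmb, Malsu1 and Igf2bp3) were detected in 0.714% (Tmem176a) to 11.4% (Malsu1) of T cells. AI854703 ends 13498 bases before Gimap8 and was found in 2.38% of T cells. Tmem176b and Tmem176a, membrane protein genes that begin 62960 and 70632 bases after Gimap3, were each found in 61.9% of cluster 4 cells and in 0.952% and 0.714% of T cells, the reverse of Gimap3 and Gimap7 at 0 of 21 in cluster 4.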

How the data were processed

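Single CD4 T cells from mouse islets were made into full-length SMART-Seq2 libraries and read in pairs of 50 and 25 bases, per the labels' protocols. The submitters' processing notes name TopHat, Bowtie, RSEM 1.2.8 and mm10 with no roles. The sources used here give no filters on genes or cells. The table deposited by the authors holds natural log values, ln(TPM/10 + 1): taking exponentials and subtracting 1 gave a total of 100000 per cell. Values were turned back into TPM, summing to 1000000 per cell. Classes and gene numbers come from the authors' annotation.

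Analysis used Python 3.11.15 with numpy 2.4.6, pandas 2.3.3 and scipy 1.17.1, and figures matplotlib 3.10.9. The difference routine was tested on simulated data. A gene was detected at 1 TPM. Differences used log2(TPM + 1) of genes detected in 10% of either group and a size of 1. A share of 0 carries the upper end of its exact interval. The cells were sorted singly and no doublet caller was run. A gene at 0 may have failed to be captured. The labels name no animal, so each sort was 1 sample and no test, p-value or standard error was computed. Likeness was ranked among genes detected in 25% of T cells, leaving out members, unnamed models and ribosomal and mitochondrial genes, naming the 8 highest and 4 lowest. The members, gene lists and comparisons were chosen with earlier results of these data known. Alternatives were a pseudocount and a detection level of 10 TPM, no detection filter, windows of gene number, leaving Rn45s out, weighting blocks equally, leaving each block out, other correlations and, chosen after seeing the data, equal class weights and leaving out 7 cells with markers against their class.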

Additional observations from a re-analysis of the deposited data

How the results depend on the processing

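Counts of members past the rule were recomputed without Rn45s, with blocks weighted equally and without the 7 cells whose markers went against their class. All 9 stayed within 1.5 times of the reported count in each setting. Leaving out the detection filter could not change a count, since all 8 members passed it in every comparison. The count between sorts over all T cells was 2, ran from 2 to 6 when 1 block was left out in turn and was 1 with 3 classes weighted equally. In the Tfh class it was 3, was 1 with 10 TPM added and ran from 1 to 7 over the blocks left out. In cluster 2 it was 3, and 1 both with 10 TPM added and in the window of gene number. In the dividing class it was 3 and ran from 3 to 5 over the blocks left out. With 10 TPM added it was 2 rather than 5 for cluster 2 against Tfh cells of the Ins sort, and 1 rather than 4 for dividing against Treg cells. Gimap1 between dividing and Treg cells was reversed, at -0.56 in the window of gene number and 2.00 over all cells. In that window Gimap3 (-1.50) and Gimap7 (-1.21) came to pass the rule as lower in dividing cells. Among cells with 1500 to 3000 genes detected, Gimap6 missed the rule and Gimap9 passed it in cluster 4 against Ins T cells. Both also held with blocks weighted equally. The share of cluster 4 cells with 4 or more members was 0% in that window and 9.52% over all cells. The median r over pairs was 0.10, with 0.061 after the slope on gene number was removed and 0.053 in the Treg class alone. The cause was not tested for any of these. Gimap7 stayed lower in HIP than in Ins T cells whichever block was left out, at -4.17 to -3.42 over all T cells, a pool of unequal class shares. Within classes its range was -1.55 to -0.70 in Tfh, -3.15 to -1.62 in cluster 2 and -2.85 to -1.19 in dividing cells. In the Tfh class Gimap7 missed the rule without block 1 (-0.70), without block 4 (-0.80) and with 10 TPM added (-0.76). TPM keeps no depth, so the number of genes detected was the only stand-in. No paired analysis was possible because each tetramer sort was 1 sample and cell numbers only name cells.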
